A study of Mus musculus with 20 samples.

Results

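DNA copy number was compared between peritoneal mesotheliomas, which arise from the cell layer that lines the belly cavity, from Ogg1 knockout mice and from Mth1 knockout mice. The tumours were taken by their genotype labels, 3 labelled Ogg1KO and 3 labelled Mth1KO, and make up 6 of the 20 tumours of the series. The mice had received crocidolite, an iron-rich asbestos fibre, by injection into the peritoneum at the age of 6 weeks and again at 7 weeks, 1.5 mg each time and 3 mg in all, and were followed for 600 to 700 days. Each tumour was hybridised to 1 2-colour Agilent oligonucleotide array for comparative genomic hybridisation, with tumour DNA in Cy5 against DNA of non-neoplastic kidney in Cy3. The kidney is labelled as C57BL/6, and its channel carries the same genotype label as the tumour beside it. The labels do not give the part of either gene that was deleted, and they do not say whether tumour and kidney came from the same animal or whether each tumour came from an animal of its own. The p-values below therefore measure the spread between arrays. In the exact permutation tests it is that of these 6 arrays, and in the main limma fit that within the groups of all 20.

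Oxidised guanine pairs with adenine as well as with cytosine and is one of the main lesions left by iron-driven oxidant damage. Ogg1 is a DNA glycosylase that cuts the oxidised base out of DNA opposite cytosine and so starts base excision repair. Mth1, encoded by Nudt1, acts before that step: it hydrolyses oxidised guanine nucleotides in the nucleotide pool, so that the polymerase does not build them in. Mutyh, which removes the adenine placed opposite an oxidised guanine, acts after replication. The comparison sets tumours that arose without the repair step in DNA against tumours that arose without the cleaning step in the pool.

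Values are log2 of tumour over kidney, centred on the autosomal median of each array, so that a value above 0 means more DNA in the tumour and a loss of 1 copy of 2 in every cell would give -1. The probes on which the results turn are 60 bases long and are printed 5′ to 3′ as the scanner files give them, which do not state the strand, with positions on build mm9. The first set was read for the genes of the 3 enzymes. The only probe named for Ogg1 is at chr6:113280022-113280081. No probe carried the name of Nudt1, and 2 probes lay between its neighbours, at chr5:140801044-140801103 and chr5:140806811-140806870. Mutyh had 2 probes, of which that at chr4:116480656-116480715 is shown because it had no signal on 1 of the 6 arrays.
Ogg1: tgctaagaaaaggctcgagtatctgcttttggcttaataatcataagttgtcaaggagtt
Nudt1 interval probe 1: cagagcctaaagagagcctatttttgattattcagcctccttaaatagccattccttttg
Nudt1 interval probe 2: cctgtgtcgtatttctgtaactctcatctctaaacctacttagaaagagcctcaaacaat
Mutyh probe 1: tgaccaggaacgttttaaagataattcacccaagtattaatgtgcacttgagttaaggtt

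The second set comes from the stretches that separated single arrays or both groups. Slc25a37 (chr14:69891300-69891359), Entpd4 (chr14:69962822-69962881) and Loxl2 (chr14:70050145-70050204) lie in a stretch of chromosome 14 where the groups differed most. Skint3 (chr4:111941131-111941190) and Skint6 (chr4:112721499-112721558) lie in a stretch of chromosome 4 that had little signal in either channel of 2 arrays. The Akap6 probe (chr12:53849311-53849370) had the widest opposition between arrays. The choice was made with their values in view. Their GC content was 36.7% to 38.3%.
Slc25a37: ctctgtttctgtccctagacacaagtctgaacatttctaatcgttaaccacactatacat
Entpd4: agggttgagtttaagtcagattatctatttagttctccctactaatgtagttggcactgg
Loxl2: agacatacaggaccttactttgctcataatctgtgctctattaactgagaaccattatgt
Skint3: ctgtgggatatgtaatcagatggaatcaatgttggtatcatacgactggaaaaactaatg
Skint6: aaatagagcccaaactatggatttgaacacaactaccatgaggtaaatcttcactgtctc
Akap6: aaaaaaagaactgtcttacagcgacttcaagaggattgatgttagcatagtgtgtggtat

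All 6 arrays were scanned on the same day. Ogg1KO 1 and Ogg1KO 2 lay on slide 4, and Ogg1KO 3 lay on slide 5 with the 3 Mth1KO arrays. Each held 170305 probes after filtering, 161460 of them autosomal, at a median spacing of 10.8 kb. The kidney channel was well above background at 85.7%, 76.8% and 97.7% of probes in Ogg1KO 1 to 3 and at 95.7%, 75.2% and 73.4% in Mth1KO 1 to 3. Ogg1KO 3 and Mth1KO 1 also had the lowest spread between neighbouring probes, 0.28 and 0.22 log2 units, against 0.33 to 0.36 in the other 4. With 3 arrays a group, their number limits the precision.

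Ogg1KO 3 and Mth1KO 1 stood apart from the other 4 arrays in a further way, seen when each channel was read alone. Channel values are log2 signals relative to the median of the same probe over the same channel of all 20 arrays. Over the 108 probes at chr4:111742887-113286297, which hold the Skint genes, a copy-variable family that takes part in selecting T cells of the skin, the kidney channel had means of 0.04, -0.03 and -2.70 in Ogg1KO 1 to 3 and of -2.58, -0.06 and 0.03 in Mth1KO 1 to 3. The tumour channel had means of 0.06, 0.03 and -2.93 in Ogg1KO and of -3.22, -0.02 and 0.03 in Mth1KO. The stretch was thus low in kidney and tumour alike on 1 array of each group. Its mean ratio was -0.04 in Ogg1KO 3 and -0.20 in Mth1KO 1. On Ogg1KO 3 the Skint3 probe and the first Mutyh probe had the same ratio, -0.014327, as the median of the stretch. Their kidney channels were -2.58 and -7.03 and their tumour channels -2.71 and -6.48. The ratio at such low probes was therefore not read as a balance of tumour and kidney. The borders were drawn after the values were seen.

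Probes below -2.5 in both channels were then counted over all autosomes. There were 620 in Ogg1KO 3 (0.384% of autosomal probes), spread over 19 chromosomes, of which 56 were in the Skint stretch. Mth1KO 1 had 60, with 54 in the Skint stretch, and the other 4 arrays had 0 or 1. The 51 such probes shared by both arrays were 8.23% of those in Ogg1KO 3 and 85% of those in Mth1KO 1. Only 3 of the shared probes lay outside the Skint stretch, so nearly all low probes elsewhere in the genome were found in the library labelled Ogg1KO 3 and not in Mth1KO 1. Such probes were also found outside both groups on the same scan day. The wild-type arrays 1 and 2 had 5179 and 2142, on 19 chromosomes, and MutyhKO 1, which was low over the Skint stretch too, had 465. These arrays also had patches where the local median ratio was more than 0.5 from that of the array. The patches held 6.65%, 4.58% and 0.23% of their spots, in that order, and 0% in Ogg1KO 3. Whether the low probes lay in patches was not tested.

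At the Mutyh probe printed above, the kidney channel of Ogg1KO 3 stood at -7.03 and its tumour channel at -6.48, and the spot was not well above background in either. The other 5 arrays lay between -0.19 and 0.10 in the kidney channel and between -0.10 and 0.12 in the tumour channel. The 3 arrays labelled MutyhKO had signal at this probe, with tumour channels of 0.04 to 0.22, while 1 wild-type array had none (-5.60 in the kidney and -5.76 in the tumour). The second Mutyh probe (chr4:116490496-116490555) stood at -2.77 and -2.996 in the kidney and tumour channels of Ogg1KO 3, and at -2.66 and -2.88 in those of Mth1KO 1. Low values at this second probe were also seen among the 3 MutyhKO arrays. Their kidney channels ran from -3.20 to 0.11 and their tumour channels from -2.60 to 1.24. So the array on which the first Mutyh probe gave no signal in kidney or tumour was labelled Ogg1KO, and the arrays labelled MutyhKO had signal there. Since the deleted part of Mutyh is not given in the sources used here and this probe is 1 of the 620 low ones, it checks no label. The shares, the counts of genes and bins and the leading genes are given with and without Ogg1KO 3 and Mth1KO 1, and other values with all 6 arrays.

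**Figure D1:**
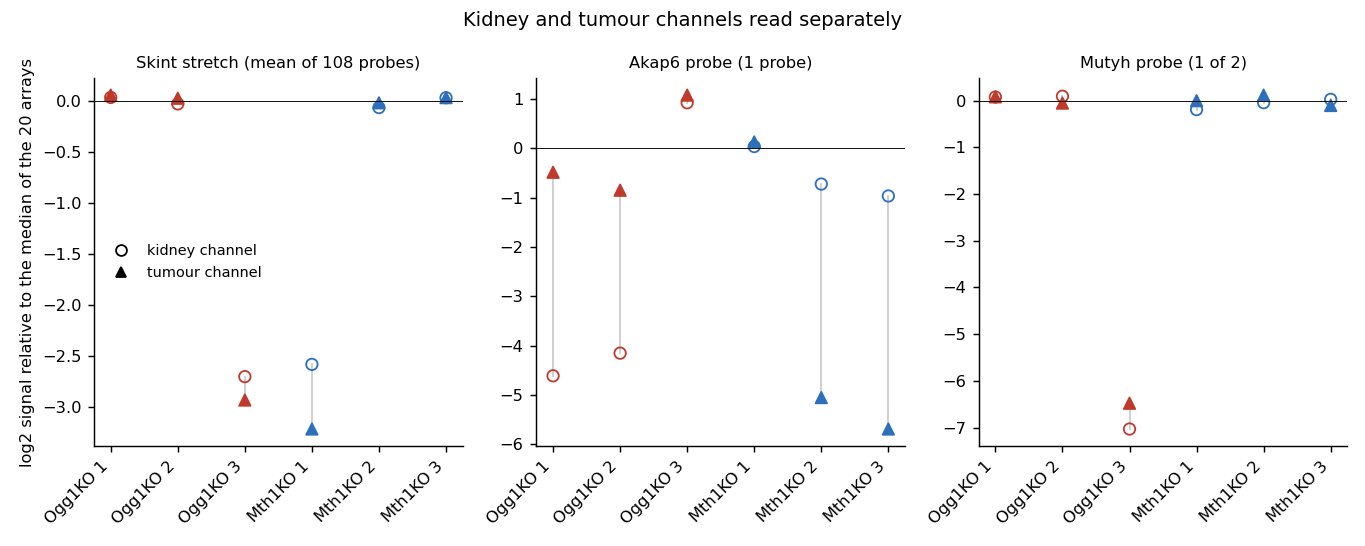
Log2 signal of the kidney channel (open circles) and the tumour channel (triangles) in each of the 6 arrays, relative to the median of the 20 arrays, for the mean of 108 Skint probes, the Akap6 probe and the first Mutyh probe; Ogg1KO is red and Mth1KO blue, and grey lines join the channels of an array. At Skint both channels are low in Ogg1KO 3 and Mth1KO 1, at Akap6 the kidney is lowest in Ogg1KO 1 and 2 and the tumour in Mth1KO 2 and 3, and at Mutyh both channels are low in Ogg1KO 3.

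Tumour and kidney also differed in their sex chromosomes on 4 arrays. The median ratio of chromosome X was 0.79, 1.03 and 0.02 in Ogg1KO 1 to 3 and 1.03, 0.16 and 0.99 in Mth1KO 1 to 3, and that of chromosome Y was -2.90, -3.53 and 0.01 against -3.24, -0.06 and -3.13. Ogg1KO 1, Ogg1KO 2, Mth1KO 1 and Mth1KO 3 thus had more X and far less Y in the tumour than in the kidney beside it, and on Ogg1KO 3 and Mth1KO 2 both ratios were close to 0. The cause was not tested. Each group held both kinds of array. No comparison uses either sex chromosome.

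The genes of the enzymes were read first. At the Ogg1 probe the ratios were -1.27, -1.27 and -0.04 in Ogg1KO 1 to 3 and -0.01, 0.72 and 1.46 in Mth1KO 1 to 3. All Ogg1KO values lay below all Mth1KO values, though Ogg1KO 3 and Mth1KO 1 nearly touched, and the mean difference was -1.58 (exact permutation p = 0.1, two-sided, the smallest that 3 arrays against 3 allow). Read alone, the kidney channel was 0.00, 0.05 and -0.47 in Ogg1KO and -0.93, -1.60 and -1.86 in Mth1KO, and the tumour channel was -0.40, -0.38 and 0.32 against -0.12, -0.02 and 0.47. The larger part of the difference between the groups therefore lay in the kidney channel, which was lower in the Mth1KO arrays and was not well above background in Mth1KO 2 and 3. Neither channel lost its signal at this probe in any Ogg1KO array. With 1 probe, whose place relative to the deletion is not given in the sources used here, the Ogg1 values do not check the labels.

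The difference at Ogg1 did not extend to its surroundings. The 22 probes within 100 kb on each side stood at -0.51, -0.50 and -0.28 in Ogg1KO and at -0.28, -0.43 and -0.39 in Mth1KO (difference -0.07, exact permutation p = 0.5, two-sided). In a wider window, chr6:112785780-113778557, the difference was 0.00. In the Nudt1 interval the mean of both probes was -0.39, -0.66 and 0.03 in Ogg1KO and 0.01, -0.24 and 0.08 in Mth1KO. The groups overlapped there (difference -0.29, exact permutation p = 0.3, two-sided), and so did those within 100 kb of it (difference 0.16, 20 probes, exact permutation p = 0.3). The tumour channel of the 3 Mth1KO arrays lay between -0.12 and 0.24 over the interval, so its probes kept their signal in tumours labelled as lacking Mth1.

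The amount of altered genome was measured by segmenting each tumour's ratios and calling a segment lost where its mean was -0.2 or lower and gained where it was 0.2 or higher. The altered share of autosomal probes was 17.7%, 25.03% and 8.63% in Ogg1KO 1 to 3 and 11.3%, 34.0% and 24.4% in Mth1KO 1 to 3. The lowest values of the 2 groups belonged to Ogg1KO 3 and Mth1KO 1, the arrays that stood apart above, and the ranges overlapped. The means were 17.1% ± 8.22 (SD, n = 3) and 23.3% ± 11.4 (SD, n = 3), a difference of -6.14 percentage points that is smaller than the SD of either group (exact permutation p = 0.5, two-sided).

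Losses made up most of it in 6 of 6 tumours. The lost share was 15.4%, 14.1% and 8.55% in Ogg1KO and 6.47%, 19.8% and 17.0% in Mth1KO, with means of 12.7% ± 3.64 and 14.4% ± 7.03 (SD, n = 3 each; difference -1.74, exact permutation p = 0.7). The gained share was 2.31%, 10.9% and 0.0768% against 4.86%, 14.3% and 7.37%, with means of 4.43% ± 5.71 and 8.83% ± 4.86 (SD, n = 3 each; difference -4.40, exact permutation p = 0.4). Breakpoints, taken as segment borders across which the mean steps by 0.2 or more, numbered 439, 370 and 124 in Ogg1KO and 253, 515 and 412 in Mth1KO, 311 ± 166 against 393 ± 132 (SD, n = 3 each; difference -82.3, exact permutation p = 0.6). The 3 measures overlapped between the groups, and the adjusted p was 0.7 for each of the 4 exact permutation tests (Benjamini-Hochberg). Without Ogg1KO 3 the differences were -1.89 points for the altered share, 0.33 for the lost share, -2.23 for the gained share and 11.2 for breakpoints, so the sign of 2 of the 4 rested on that array, and the lost share also turned, to 0.94, without Mth1KO 2. Without Mth1KO 1 the altered share differed by -12.1, the lost share by -5.72 and breakpoints by -152.5. On slide 5, where Ogg1KO 3 is the only Ogg1KO array, the altered share was 8.63% against 23.3% in Mth1KO and breakpoints 124 against 393, with no test.

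**Figure D2:**
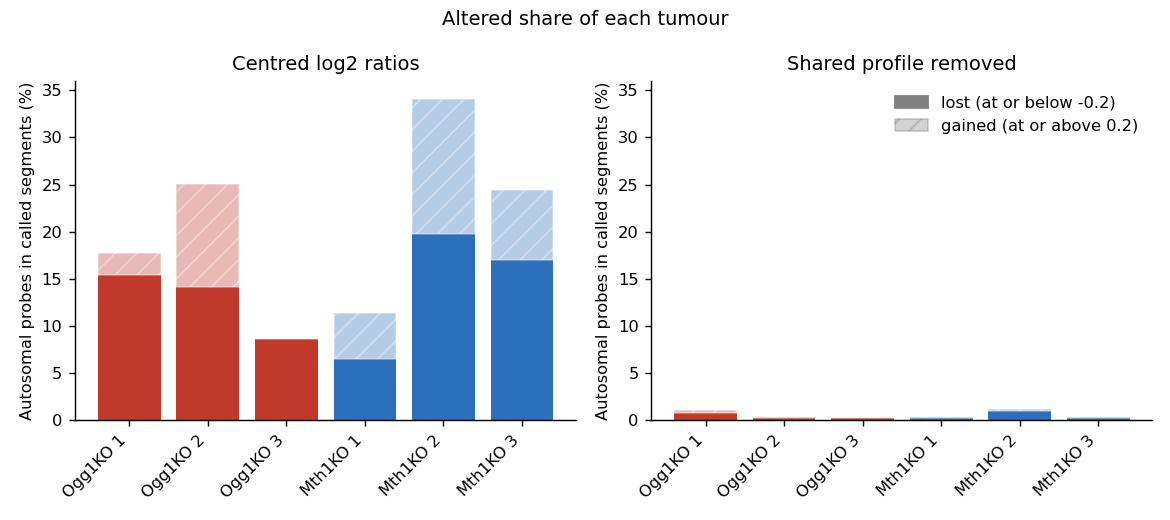
Percent of autosomal probes in lost (solid) and gained (hatched) segments in each of the 3 Ogg1KO (red) and 3 Mth1KO (blue) tumours, from the centred ratios and after removal of the profile shared by the 14 other arrays. The altered share runs from 8.63% to 25.03% in Ogg1KO and from 11.3% to 34.0% in Mth1KO, and falls to between 0.191% and 1.19% once the shared profile is removed.

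Most of the called genome followed a profile that all arrays had in common. The mean ratios in 2392 bins of 1 Mb correlated at 0.88 to 0.92 between an Ogg1KO and a Mth1KO tumour (9 pairs) and at 0.87 to 0.95 within a group (6 pairs). These correlations are across bins, which are not independent, and the arrays share the probe set. The profile followed the number of named genes in a bin, with correlations of -0.74 to -0.80 over the 6 tumours. Gene-rich bins were thus low and gene-poor bins high in every tumour. Correlations with the mean GC content of the probes in a bin were weaker, at -0.29 to -0.42. Probe GC varied little, with means of 36.3% in the 479 bins where it was lowest and 37.2% in the 479 where it was highest. The GC content of the genomic DNA in the bins was not measured. The SD of the bins was 0.18, 0.19 and 0.13 in Ogg1KO and 0.13, 0.22 and 0.20 in Mth1KO, lowest in Ogg1KO 3 and Mth1KO 1, where the kidney channel was brightest over background. The difference in SD was -0.02 (exact permutation p = 0.5, two-sided).

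Regression of each tumour on the profile of the 14 arrays outside both groups gave slopes of 1.61, 1.64 and 1.06 in Ogg1KO and 1.06, 1.95 and 1.77 in Mth1KO (difference -0.15, exact permutation p = 0.6, two-sided). After its removal the altered share was 1.08%, 0.278% and 0.191% in Ogg1KO and 0.307%, 1.19% and 0.254% in Mth1KO. Breakpoints fell to 70, 28 and 4 against 27, 78 and 17. Ogg1KO 1 and Mth1KO 2 then carried the most, and the groups still overlapped. The bins still correlated after the removal, at 0.51 to 0.68 between the groups and at 0.46 to 0.76 within them. Part of what was left was thus still common to the arrays. What share of the common profile is copy number was not tested.

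Whole chromosomes were close to balanced in all 6 tumours. The mean ratios of the 19 autosomes ran from -0.15, chromosome 11 of Mth1KO 2, to 0.06, chromosome 3 of Ogg1KO 2, and none reached 0.2 in size. At chromosome 11 the values were -0.12, -0.09 and -0.09 in Ogg1KO and -0.07, -0.15 and -0.15 in Mth1KO, and at chromosome 19, the next lowest, -0.10, -0.06 and -0.05 against -0.03, -0.09 and -0.09. The groups overlapped on 19 of 19 autosomes. The largest difference was 0.02, on chromosome 10 (limma 95% interval -0.04 to 0.08), and limma called 0 chromosomes (0%), with 0 at an unadjusted p under 0.05. Every interval lay between -0.07 and 0.08, so no whole-chromosome difference of 0.1 or more was within them.

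**Figure D3:**
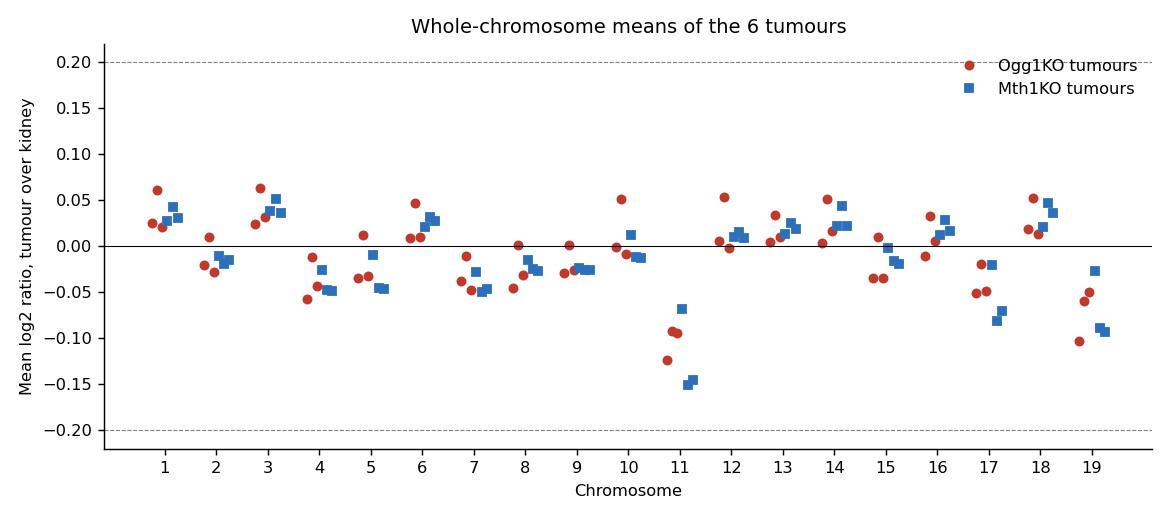
Mean log2 ratio of each autosome in the 3 Ogg1KO tumours (red circles) and the 3 Mth1KO tumours (blue squares), with dashed lines at 0.2 and -0.2. All points lie between -0.15 and 0.06, and the groups overlap on each autosome.

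Genes were compared with limma on the mean ratio of each of the 9077 autosomal genes with at least 3 probes, in 1 fit of all 20 arrays. After adjustment 0 genes passed at 0.05 (0%). Before it, 196 had a limma p under 0.05 (2.16%), 121 of them higher in Ogg1KO (1.33%) and 75 lower (0.826%). Of the genes, 91.8% differed by less than 0.2 between the group means, and the middle 90% of differences ran from -0.17 to 0.20. The typical 95% interval reached 0.24 to each side, so that a difference of a fraction of a copy in all cells could go unseen at a gene. Groups that did not overlap were seen at 276 genes with higher Ogg1KO values (3.04%) and 181 with lower ones (1.99%). With a difference of at least 0.3 as well, these were 32 (0.353%) and 17 (0.187%). Without Mth1KO 1, 506 genes had an unadjusted p under 0.05, and without both Ogg1KO 3 and Mth1KO 1 there were 524, with limma again calling 0 (smallest adjusted p = 0.0690 and 0.0682).

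The genes of lowest unadjusted p that were higher in Ogg1KO, at most 2 per stretch of 5 Mb, were Rnf115, Loxl2, 1700016D06Rik, Slc25a37, Vmn2r81 and Ccdc83, all with a limma adjusted p of 0.9995. Rnf115, a ubiquitin ligase gene (chr3:96537083-96593401, 7 probes), stood at 0.05, 0.20 and 0.07 in Ogg1KO and at -0.17, -0.33 and -0.37 in Mth1KO. The groups lay on opposite sides of 0, with a difference of 0.40 (SE 0.10). It was 0.14 with normexp background correction and 0.065 on probes whose kidney signal was well above background in all 6 arrays (limma unadjusted p = 0.146 and 0.501). In the separate channels Rnf115 was lower in the Ogg1KO kidneys by 0.54 and in the Ogg1KO tumours by 0.14, so the higher ratio came with a lower kidney signal and not with a higher tumour signal.

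1700016D06Rik (chr8:11656183-11678265, 4 probes) stood at 0.12, 0.03 and 0.03 in Ogg1KO and at -0.18, -0.31 and -0.42 in Mth1KO, a difference of 0.36 (SE 0.10; 0.22 with normexp), of which the tumour channel differed by 0.24 and the kidney channel by -0.11. Ccdc83 (chr7:97374464-97409934, 4 probes) stood at 0.17, 0.16 and 0.08 against -0.07, -0.15 and -0.09, a difference of 0.24 (SE 0.08; 0.13 with normexp). At both genes each Ogg1KO tumour was above 0 and each Mth1KO tumour below it. On probes with kidney signal well above background the 1700016D06Rik difference was 0.27 (limma unadjusted p = 0.0401). Ccdc83 and Vmn2r81 kept too few such probes to be tested. Vmn2r81, a pheromone receptor gene of the vomeronasal organ (3 probes), stood at 0.03, 0.18 and 0.35 against -0.43, 0.05 and -0.37. There the groups overlapped, since Mth1KO 2 was above Ogg1KO 1, and the difference of 0.44 was 0.11 with normexp and 0.27 without Ogg1KO 3 and Mth1KO 1.

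Among the genes lower in Ogg1KO, Acot12, which encodes an enzyme that releases acetate from acetyl-CoA (chr13:91884663-91911825, 4 probes), had the lowest unadjusted p of all genes. It stood at -0.49, -0.41 and -0.40 in Ogg1KO and at -0.02, -0.13 and 0.08 in Mth1KO, with no overlap and a difference of -0.42 (SE 0.10, limma unadjusted p = 0.000512, adjusted p = 0.9995). With normexp the difference was -0.23. The tumour channel differed by -0.30 and the kidney channel by 0.12. Galnt2, whose product starts O-linked glycosylation of proteins (chr8:126758264-126865895, 12 probes), stood at -0.36, -0.40 and -0.44 against -0.07, -0.09 and 0.03. The groups were apart by more than their spread, with a difference of -0.36 (SE 0.11), -0.22 in the tumour channel and 0.14 in the kidney channel. It was -0.077 with normexp and -0.058 on probes with kidney signal well above background (limma unadjusted p = 0.404 and 0.656). BC055004 (3 probes) stood at -0.88, -0.73 and -0.28 against -0.14, 0.23 and 0.09, a difference of -0.69 that was -0.29 with normexp, -0.35 with slide as a fixed term and -0.97 without Ogg1KO 3 and Mth1KO 1. Acot12 and BC055004 kept too few probes with kidney signal well above background to be tested on those.

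The remaining genes of the same rule were a transcript, Mdm1 and Lrp12. ENSMUST00000161810 (5 probes) stood at 0.08, 0.27 and -0.05 in Ogg1KO and 0.29, 0.72 and 0.41 in Mth1KO, where the kidney channel differed by 0.32 and the tumour channel by -0.07. Mdm1, a gene for a centriole protein (4 probes), stood at -0.39, -0.29 and -0.27 against -0.14, -0.08 and 0.11, where the kidney channel differed by 0.26 and the tumour channel by -0.03. At both the groups did not overlap, and the difference lay mainly in the kidney reference. That at ENSMUST00000161810, -0.38, was -0.15 with normexp and also on probes with kidney signal well above background. The Mdm1 difference, -0.28, was -0.22 with normexp and -0.27 on such probes. Lrp12, a gene for a relative of the low-density lipoprotein receptor (5 probes), stood at -0.34, -0.38 and -0.10 against -0.13, 0.03 and 0.28, with overlap. Its difference of -0.33 was -0.16 with normexp, with the kidney filter and with slide as a fixed term, and -0.51 without Ogg1KO 3 and Mth1KO 1.

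**Figure D4:**
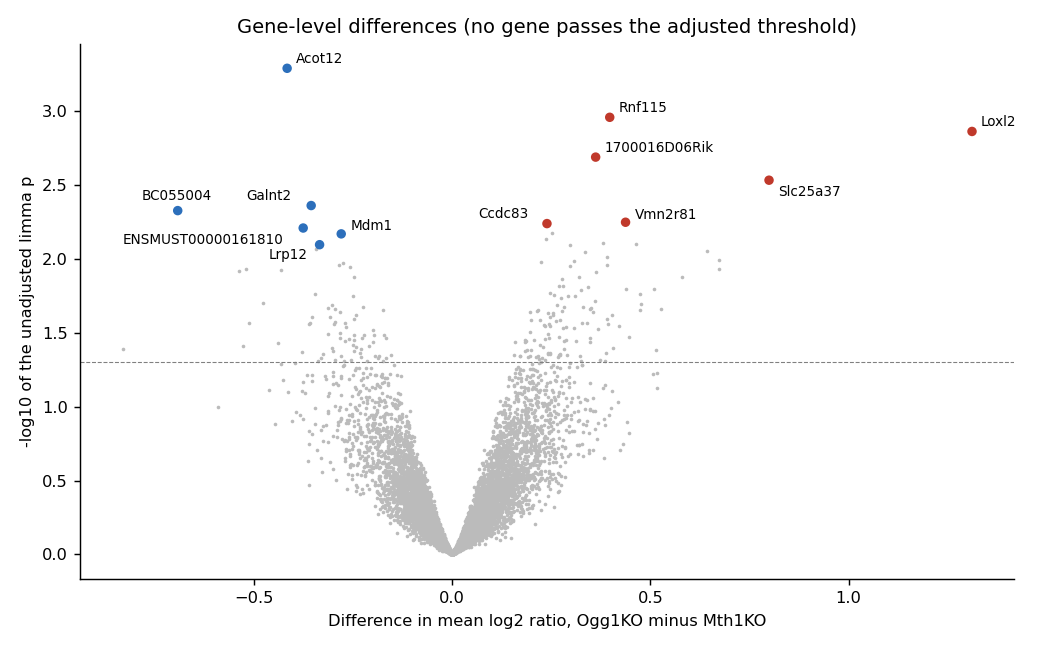
Difference in mean log2 ratio between Ogg1KO and Mth1KO (x axis) and −log10 of the unadjusted limma p (y axis) for 9077 autosomal genes; genes named by the rule are coloured, red where higher and blue where lower in Ogg1KO, and the dashed line marks an unadjusted p of 0.05. Loxl2 and Slc25a37 lie farthest to the right, at 1.31 and 0.80, and no gene passes after adjustment.

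The largest differences between the groups were on chromosome 14, at Loxl2, whose product cross-links collagen, and Slc25a37, which encodes mitoferrin, the carrier that brings iron into mitochondria. Loxl2 (chr14:70013274-70090608, 9 probes) stood at 0.88, 0.78 and -0.05 in Ogg1KO and at -0.13, -1.10 and -1.10 in Mth1KO, a difference of 1.31 (SE 0.35, limma adjusted p = 0.9995). Slc25a37 (chr14:69863952-69899746, 4 probes) stood at 0.13, 0.25 and -0.23 against -0.27, -0.96 and -1.02, a difference of 0.80 (SE 0.23, limma adjusted p = 0.9995). At both genes Ogg1KO 3 and Mth1KO 1 were next to each other in the middle, and the gap between the groups was far smaller than the spread within each. Without these 2 arrays the differences were 1.93 at Loxl2 and 1.18 at Slc25a37 (limma adjusted p = 0.165 and 0.321). With slide as a fixed term they were 0.72 and 0.52 (limma adjusted p = 0.946 for both). The Loxl2 difference was 0.81 with normexp. On probes with kidney signal well above background in all 6 arrays it was 1.28 (limma unadjusted p = 0.00167). Slc25a37 kept too few such probes to be tested.

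Over the whole stretch at chr14:69876584-70090608, drawn from the segment of Mth1KO 2 and holding 23 probes of Slc25a37, Entpd4, Loxl2 and 3 further transcripts, the ratio was 0.70, 0.57 and -0.11 in Ogg1KO 1 to 3 and -0.19, -1.23 and -1.23 in Mth1KO 1 to 3. Mth1KO 2 and 3 lay below the other 4 arrays at 23 of 23 probes, Ogg1KO 1 and 2 lay above them at 21 of 23, and the groups did not overlap at 17 of 23. The mean of the 10 probes upstream ran from -0.06 to 0.07 over the 6 arrays. That of the 10 downstream ran from -0.32 to -0.10 with no difference between the groups (-0.01). Single probes ran from -0.64 to 0.71 upstream and from -0.91 to 0.57 downstream. The stretch was therefore bounded on both sides. Because the stretch was chosen for its values, with borders set by the low values of Mth1KO 2, the counts of its probes carry no test. Shares over all autosomal probes are not given beside them.

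The separate channels of the stretch showed only 2 levels. The kidney channel was at -0.24 and -0.18 in Ogg1KO 1 and 2 and at 0.69, 0.72, 0.84 and 0.82 in Ogg1KO 3 and Mth1KO 1 to 3. The tumour channel was at 0.73, 0.62 and 0.81 in Ogg1KO 1 to 3 and 0.75 in Mth1KO 1, and at -0.12 and -0.15 in Mth1KO 2 and 3. High ratios in Ogg1KO 1 and 2 thus came with a low kidney beside a high tumour, low ratios in Mth1KO 2 and 3 with a high kidney beside a low tumour, and ratios near 0 with both channels high. The same ratios were seen outside both groups. Of the 6 other arrays scanned on that day, the wild-type arrays 1 and 2 and MutyhKO 2 stood at -1.22, -1.30 and -1.08, with a high kidney (0.63 to 0.83) beside a low tumour (-0.36 to 0.00), and MutyhKO 3 stood at 0.81, with a low kidney (-0.23) beside a high tumour (0.82). The ratio was -0.57 in the wild-type array 3 and -0.16 in MutyhKO 1. The pattern was therefore not particular to Ogg1KO and Mth1KO. In the 8 arrays of wild-type and Dmt1 transgenic mice scanned on the other day both channels were low, at -0.29 to -0.22 in the kidney and -0.31 to -0.16 in the tumour. The tumour levels in Ogg1KO 1 and 2 (0.73 and 0.62) were close to or below the kidney levels on the Mth1KO arrays (0.72 to 0.84).

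**Figure D5:**
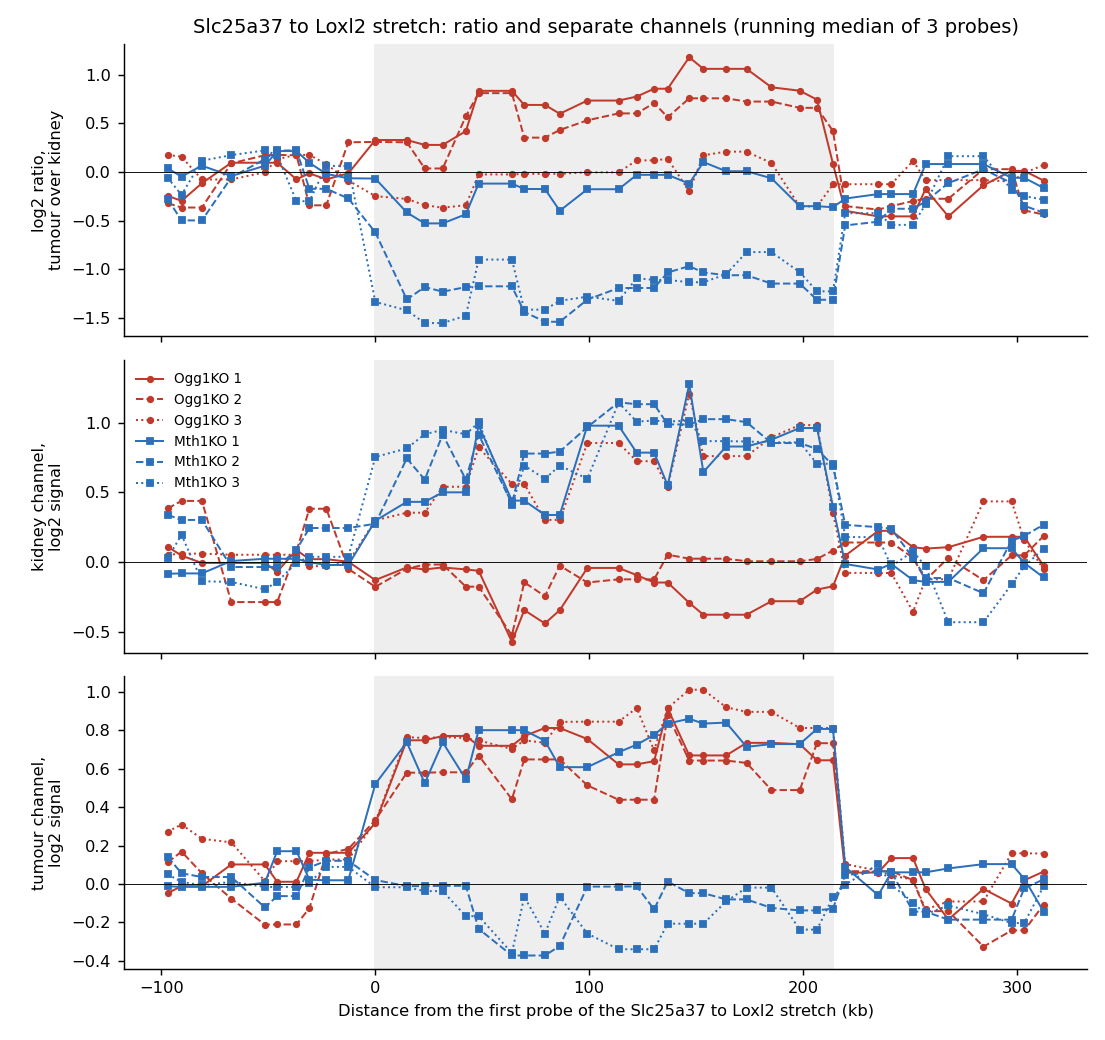
Log2 ratio (top), kidney channel (middle) and tumour channel (bottom) along the Slc25a37 to Loxl2 stretch (grey) and its flanks in each of the 6 arrays, as running medians of 3 probes against distance from the first probe of the stretch in kb. The kidney channel is low in Ogg1KO 1 and 2 only, the tumour channel is low in Mth1KO 2 and 3 only, and outside the stretch neither split is seen.

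Single probes with the same kind of opposition were looked for after these values were seen. Above 1.5 in both Ogg1KO 1 and Ogg1KO 2 there were 195 autosomal probes, and below -1.5 in both Mth1KO 2 and Mth1KO 3 there were 137, of which 3 met both conditions. With the directions exchanged there were 48 and 158 probes, and 0 met both. The 3 probes lay in Akap6, a gene for a protein that anchors kinase A, in Grm7, which encodes a glutamate receptor, and at an unnamed position of chromosome 12 (chr12:55235876-55235935). The Akap6 probe had ratios of 4.16, 3.37 and 0.23 in Ogg1KO and of 0.18, -4.29 and -4.69 in Mth1KO. Its kidney channel was lowest in Ogg1KO 1 and 2 (-4.61 and -4.15) and its tumour channel in Mth1KO 2 and 3 (-5.05 and -5.69). These are the arrays and channels that were low over the Slc25a37 stretch. Here the opposite channels of these arrays were below the median too. The kidney channel was at -0.73 and -0.97 in Mth1KO 2 and 3, and the tumour channel at -0.49 and -0.85 in Ogg1KO 1 and 2. At Grm7 (chr6:111339454-111339513) the ratios were 3.07, 2.35 and 0.13 against 0.45, -1.86 and -2.69.

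A scan for stretches where any of the 6 arrays left the others found the Serpina cluster of protease inhibitor genes on chromosome 12 as well. The 10 probes at chr12:105176933-105258157, with Serpina1e, Serpina11 and Serpina9, stood at 1.17, 1.02 and 0.05 in Ogg1KO and at 0.12, -0.36 and -0.14 in Mth1KO. The kidney channel was low in Ogg1KO 1 and 2 (-0.52 and -0.87) and the tumour channel in Mth1KO 2 and 3 (-0.82 and -0.48), while the Ogg1KO 1 and 2 tumours were at 0.12 and 0.02. The high ratios of these 2 arrays therefore came with a kidney below the median and a tumour at it. The Dis3l2 gene of chromosome 1, an RNA exonuclease gene, was different, with only Mth1KO 3 set apart. Over 8 probes the ratio of Mth1KO 3 was -0.80, against -0.04 to 0.26 in the other 5 arrays. Its tumour channel was -0.62, against -0.02 to 0.10 in the others, and its kidney channel 0.32, against -0.10 to 0.19.

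Bins of 1 Mb gave the same picture as genes. Of 2392 bins limma called 0 after adjustment (0%), against 26 with a p under 0.05 before it (1.09%). The latter count was 168 without Mth1KO 1, 107 without Mth1KO 1 and Ogg1KO 3, 68 with slide as a fixed term and 10 without Mth1KO 3, each with 0 called by limma. The groups did not overlap at 46 bins with higher Ogg1KO values (1.92%) and 42 with lower ones (1.76%). The lowest p was that of the bin with Slc25a37 (chr14:69000001-70000000, 78 probes), at 0.19, 0.19 and 0.06 in Ogg1KO and 0.01, -0.06 and -0.13 in Mth1KO. Next came chr12:55000001-56000000 (63 probes), which holds Egln3, Baz1a and part of Npas3, at -0.05, 0.02 and -0.04 against -0.08, -0.28 and -0.19. In both bins the groups were apart, with differences of 0.20 (SE 0.06) and 0.16 (SE 0.05) and a limma adjusted p of 0.9996, as for all 10 bins named. With normexp the differences were 0.11 and 0.057. On probes with kidney signal well above background they were 0.26 and 0.12 (limma unadjusted p = 0.00588 and 0.0415). The other 3 bins higher in Ogg1KO overlapped between the groups: chr2:56000001-57000000, with Nr4a2, differed by 0.12, chr11:104000001-105000000 by 0.13 and chr10:33000001-34000000, with Trdn, by 0.14. With that kidney filter these 3 differences were 0.056, 0.065 and 0.057.

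The 5 bins of lowest p that were lower in Ogg1KO held few named genes. At 2 of them the groups did not overlap. The first (chr4:67000001-68000000, 31 probes) stood at 0.11, 0.14 and 0.10 in Ogg1KO and 0.15, 0.28 and 0.32 in Mth1KO, and the other (chr4:105000001-106000000, 29 probes) at -0.11, -0.12 and -0.08 against -0.04, 0.12 and 0.03. At the other 3 the groups overlapped, with Mth1KO 1 among the Ogg1KO arrays. The bin with Grm7 (chr6:110000001-111000000, 55 probes) stood at 0.14, 0.22 and 0.11 in Ogg1KO and 0.19, 0.44 and 0.44 in Mth1KO. The bins chr2:100000001-101000000 and chr10:35000001-36000000, with no named gene, differed by -0.20 and -0.18. On probes with kidney signal well above background the 5 differences were between -0.12 and -0.026, and their limma unadjusted p ranged from 0.0796 to 0.733. Over all bins the typical 95% interval reached 0.11 to each side. Called lost in 6 of 6 tumours were 75 bins, called gained in 6 of 6 were 0, and 11 bins were gained in 5.

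Genes in lost segments numbered 2053, 1816 and 1083 in Ogg1KO 1 to 3 (22.6%, 20% and 11.9% of genes) and 804, 2568 and 2195 in Mth1KO 1 to 3 (8.86%, 28.3% and 24.2%). Genes in gained segments numbered 128, 485 and 3 in Ogg1KO 1 to 3 (1.41%, 5.34% and 0.0331% of genes) and 180, 602 and 277 in Mth1KO 1 to 3 (1.98%, 6.63% and 3.05%). Ogg1KO 3 and Mth1KO 1 had the fewest of both in their groups, and the groups overlapped on both counts. After removal of the shared profile the lost genes numbered 80, 10 and 21 in Ogg1KO 1 to 3 (0.881%, 0.11% and 0.231% of genes) and 15, 125 and 22 in Mth1KO 1 to 3 (0.165%, 1.38% and 0.242%). The gained genes then numbered 34, 15 and 0 in Ogg1KO 1 to 3 (0.375%, 0.165% and 0% of genes) and 18, 26 and 10 in Mth1KO 1 to 3 (0.198%, 0.286% and 0.11%). Before that removal, at least 1 Ogg1KO tumour had a loss at 27.1% of genes and a gain at 5.99%. For at least 1 Mth1KO tumour these were 31.9% and 8.35%. Gained in all 3 before the removal were 3 genes in Ogg1KO (0.0331%) and 45 in Mth1KO (0.496%).

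At the level of called genes the groups largely shared their losses before removal of the shared profile. The counts that follow are from ratios that still hold that profile, which the other arrays had in common with them. Of the 9077 genes, 902 were lost in all 3 Ogg1KO tumours (9.94%), 742 in all 3 Mth1KO tumours (8.17%) and 590 in all 6 (6.5%). Lost in all Mth1KO tumours and in no Ogg1KO tumour were 5 genes (0.0551%), and the reverse was true of 0. The 5 were Pawr, which encodes a protein that promotes cell death, Elavl1, which encodes an RNA-binding protein, Ccl25, a chemokine gene, Evi5l and AK084119. Their ratios did not separate the groups: at Pawr (7 probes) they were -0.55, -0.29 and -0.26 in Ogg1KO and -0.35, -0.48 and -0.65 in Mth1KO, and at Elavl1 (4 probes) -0.47, -0.53 and -0.14 against -0.31, -0.36 and -0.40. Gained in all 3 Mth1KO tumours and in no Ogg1KO tumour were 4 genes (0.0441%), Popdc3 and the transcripts AF345293, AK088947 and X16671, and the reverse was again true of 0. X16671 (16 probes) stood at 0.05, 0.05 and 0.23 against 0.22, 0.36 and 0.29. Popdc3 was called gained from the segments its 3 probes lay in, but the mean of their own ratios was below 0, at -0.01, -0.09 and -0.32 in Mth1KO.

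Gene lists were read in the order of the pathway. The list of oxidised guanine and base excision repair had 26 measured genes, 6 of them with the 3 probes of their own needed for the test. None of the 6 was called (0 higher, 0 lower), 0 had an unadjusted p under 0.05, and their median difference was -0.05, against 0.00 over all genes tested. Xrcc1, the scaffold of the pathway (3 probes), stood at -0.56, -0.59 and -0.45 in Ogg1KO and -0.40, -0.60 and -0.39 in Mth1KO. Neil3, a glycosylase of the same kind of lesion (5 probes), stood at 0.06, -0.06 and 0.28 against 0.13, 0.16 and -0.04. Both overlapped between the groups. Lig3, the ligase that closes the repaired strand in this pathway (3 probes), stood at -0.08, -0.29 and -0.20 in Ogg1KO and at -0.15, 0.19 and 0.23 in Mth1KO, where Mth1KO 1 lay among the Ogg1KO tumours.

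The list of nucleotide pool cleaning had 21 measured genes and 8 tested, of which 0 were called and 0 had an unadjusted p under 0.05 (median difference 0.02). Nudt5, a hydrolase of oxidised guanine diphosphate (4 probes), stood at 0.10, 0.13 and 0.05 in Ogg1KO and -0.13, 0.25 and 0.09 in Mth1KO. Samhd1, which breaks down deoxynucleotides (3 probes), stood at 0.00, -0.05 and -0.15 against 0.13, -0.04 and -0.26. Nudt16, a hydrolase of inosine nucleotides, was read from 6 probes between its neighbours, at -0.11, 0.01 and 0.49 against -0.12, -0.28 and -0.13, where Ogg1KO 1 and Mth1KO 1 nearly touched.

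Of the genes of iron handling and ferroptosis, 31 were measured and 16 tested, with 0 called and 3 at an unadjusted p under 0.05, against 2.16% of all genes. These were Slc25a37, given above, Aco1 and Trf. Aco1, the cytosolic aconitase that becomes an iron-regulatory protein when iron is scarce (chr4:40093429-40138465, 5 probes), stood at -0.76, -0.46 and -0.46 in Ogg1KO and at -0.28, -0.40 and -0.09 in Mth1KO, a difference of -0.30 (SE 0.12, limma unadjusted p = 0.0204, adjusted p = 0.9995). Trf, which encodes the iron carrier transferrin (3 probes), stood at -0.34, -0.20 and -0.36 against -0.20, -0.12 and 0.27. The groups did not overlap at either gene, but Ogg1KO 2 and Mth1KO 1 nearly touched at Trf. The oxidant defence list had 22 measured genes and 4 tested, among them Nfe2l2, the master regulator of that response (4 probes), at -0.81, -0.78 and -0.07 against -0.35, -0.62 and -0.74, with 0 called.

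Tumour suppressors were often called lost in both groups. Of 28 measured, 17 were lost in at least 1 of the 6 tumours and 5 in all 6, against 34.9% and 6.5% of all genes, and 0 were lost once the shared profile was removed. The 8 with the largest difference between group means were Cdkn1a, Lats1, Tsc2, Setdb1, Cdkn1b, Trp53, Rassf1 and Tsc1. Cdkn1a, the cell-cycle inhibitor p21 (1 probe), stood at -0.64, -0.50 and -0.01 in Ogg1KO and -0.02, -1.31 and -1.39 in Mth1KO. Trp53, which encodes the p53 protein (2 probes), stood at -0.75, -0.79 and -0.26 against -0.25, -0.66 and -0.52, and Lats1, a kinase of the Hippo pathway (3 probes), at -0.09, -0.28 and -0.13 against -0.16, -0.54 and -0.45. At Cdkn1a and Trp53 the values nearest 0 were those of Ogg1KO 3 and Mth1KO 1, and the groups overlapped at all 3 genes.

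The other 5 of those suppressors overlapped too. Tsc2 (4 probes) stood at -0.52, -0.16 and -0.26 in Ogg1KO and -0.15, -0.07 and -0.25 in Mth1KO, and Setdb1, a histone methyltransferase gene (4 probes), at -0.35, -0.38 and -0.06 against -0.18, -0.41 and -0.66. Cdkn1b, the inhibitor p27, was read from 4 probes between its neighbours, at -1.05, -0.85 and -0.35 against -0.37, -0.62 and -0.88. Rassf1 (1 probe) stood at -0.92, -1.01 and -0.58 against -0.47, -0.89 and -0.78, and Tsc1 (7 probes) at -0.40, -0.14 and -0.38 against -0.09, -0.28 and -0.22. Cdkn2a and Nf2, the suppressors best known from mesothelioma, are given outside that ranking. Cdkn2a (2 probes) stood at -0.16, -0.06 and -0.20 against 0.08, -0.22 and 0.01 and was called lost in 0 of the 6 tumours. Nf2 (8 probes) stood at -0.17, -0.05 and -0.18 against -0.13, -0.45 and -0.14 and lay in lost segments in 2 tumours of each group. No suppressor among the 21 tested was called, and their median difference was 0.00.

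The very long genes of fragile sites, which break when replication is slowed, read high rather than low. Of these, 23 were measured and tested, 0 were called, and 0 had groups that did not overlap. Their median ratio was 0.16 in Ogg1KO and 0.19 in Mth1KO. Of the 23, 4 were called gained in at least 1 Ogg1KO tumour and 9 in at least 1 Mth1KO tumour, against 5.99% and 8.35% of all genes. Once the shared profile was removed, 0 of the 23 were called gained in any of the 6 tumours. Fhit stood at 0.09, 0.16 and 0.07 against 0.08, 0.17 and 0.16 and was not called lost in any of the 6 tumours.

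Across the remaining lists limma called 0 genes as well. Hippo pathway genes (17 tested), double-strand break repair genes (19), mismatch and bulky lesion repair genes (15) and mesothelial markers (5) each had 0 at an unadjusted p under 0.05. Among oncogenes and growth factor receptors (18 tested) the receptor kinase gene Axl, at -0.38, -0.16 and -0.31 in Ogg1KO and -0.41, -0.66 and -0.47 in Mth1KO, was the only one. The copy-variable families (204 measured, 43 tested) had 3, all vomeronasal receptors. Counted over all lists, 7 of 189 tested genes had an unadjusted p under 0.05, against 2.16% of all genes. The groups did not overlap at 9 with higher and 4 with lower Ogg1KO values, 6.88% together, against 3.04% and 1.99% of all genes. Only Slc25a37 and Aco1 of these differed by at least 0.3.

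Members outside the test, with too few probes of their own or read between their neighbours, varied more. Of 271 such genes, 15 had groups that did not overlap and a difference of at least 0.3, Ogg1 among them. The share was 3.5% of the 11208 named genes with 1 or 2 probes, a set that holds no gene read between neighbours. Olfr286, an olfactory receptor gene (1 probe, chr15:98060775-98060834), stood at 0.94, 0.64 and 0.51 in Ogg1KO and -0.52, -0.82 and -0.52 in Mth1KO, a difference of 1.31. Vmn2r1, a vomeronasal receptor gene (2 probes), stood at -0.53, -0.84 and -0.29 against 0.11, 0.25 and 0.06, and Vmn2r26 (1 probe) at -0.36, -0.57 and -0.30 against 0.11, 0.23 and 0.50. Olfr330 (1 probe) stood at 0.56, 1.24 and 1.34 against 0.55, 0.34 and -1.47, where Ogg1KO 1 and Mth1KO 1 nearly touched. With 1 or 2 probes these values have no check from a neighbour within the gene.

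Segments that set 1 tumour apart from the other 5 were ranked in each array. Apart from the chromosome 14 stretch, several were losses with smaller losses beside them in the other tumours. In Ogg1KO 1, 12 probes at chr12:60126848-60229776, with Trappc6b and Pnn, stood at -0.88 (SE 0.18 over probes) against -0.56 to -0.19 in the other 5. In Ogg1KO 2, 46 probes of a vomeronasal receptor cluster at chr7:49074041-49691031 stood at 0.61 (SE 0.11) against 0.12 to 0.38. For Mth1KO 1 and Ogg1KO 3 the largest departures were mostly shallower losses than in the others, as in Mth1KO 1 at chr19:8762565-9090315 (34 probes), at -0.44 against -0.88 to -0.43.

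The antigen receptor loci, which are cut in T and B cells and would read low in DNA from those cells, had no probe of their own name and were read between their neighbours. The ratio of the T-cell receptor alpha locus (94 probes) was 0.14, 0.18 and 0.16 in Ogg1KO and 0.09, 0.22 and 0.14 in Mth1KO. The immunoglobulin heavy chain locus (182 probes) was at 0.08, 0.22 and 0.04 against 0.12, 0.16 and 0.18. Over the 6 loci the ratio was above 0 except at T-cell receptor gamma in Ogg1KO 1 (-0.04, 13 probes), the groups overlapped at each, and the differences ran from -0.04 to 0.01.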

How the data were processed

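The 6 arrays were fitted together with the other 14 of the series, and the groups compared, the arrays and the gene lists were chosen with earlier results of these data known. Per the file headers, the deposited red and green intensity values were background-subtracted, spatially detrended and dye-normalised by Agilent's scanner software, Feature Extraction 10.7 in the submitters' processing notes, which wrote their log10 ratio. The deposited value table of the series, on a log2 scale, served as an alternative, and the deposited mean and background intensity for normexp. Here control and outlier spots were left out, ratios were converted to log2 and centred on the autosomal median. Segments came from PELT (penalty 40 times the squared noise, at least 5 probes). Features were tested with limma 3.58.1 (R 4.3.3), with Benjamini-Hochberg adjustment, and shares with two-sided exact permutation tests in Python 3.11.15. Each pipeline was tested on simulated data. Named were the 6 genes and 5 bins of lowest p in each direction, at most 2 genes per 5 Mb, list members whose groups did not overlap and differed by at least 0.3, and the 8 suppressors whose group means differed most; others are said to be chosen by their values. Gene symbols were updated through GRCm38.p6, which gave no coordinates. Replicate numbers did not pair the arrays, as given with the alternatives.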

Additional observations from a re-analysis of the deposited data

Results flagged for a closer look

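At 3 of the named genes every Ogg1KO tumour was above 0 and every Mth1KO tumour below it: the difference was 0.40 at Rnf115, 0.36 at 1700016D06Rik and 0.24 at Ccdc83, and limma's adjusted p was 0.9995 for each. With normexp these were 0.14, 0.22 and 0.13. On probes with kidney signal well above background the difference was 0.065 at Rnf115 and 0.27 at 1700016D06Rik, and Ccdc83 kept too few such probes to be tested. On chromosome X, which no comparison uses, the median ratio was 0.79 in Ogg1KO 1, 1.03 in Ogg1KO 2, 1.03 in Mth1KO 1 and 0.99 in Mth1KO 3. In the kidney channel alone, which the ratios do not show, the median of the Skint stretch was -2.70 in Ogg1KO 3 and -2.61 in Mth1KO 1.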

How the results depend on the processing

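The exact permutation p of 3 arrays against 3 cannot go below 0.1, so the tests of the shares and breakpoints say nothing about stability, and their values are given. The altered share was 4.47% in Ogg1KO and 4.58% in Mth1KO with normexp (difference -0.11) and 43.2% and 55.9% at a call threshold of 0.1 (difference -12.7). The lost share turned to 0.066 percentage points with normexp, and the gained share to 0.021 with the shared profile removed. With the 4 arrays that kept the Skint stretch and the shared profile removed, an alternative chosen after seeing the data, the gained share turned to 0.11 and breakpoints to 1.5. Within slide 5 breakpoints differed by -269, with 1 Ogg1KO array. Leaving out 1 array at a time gave -12.1 to -0.744 for the altered share, -5.72 to 0.945 for the lost share, -7.63 to -1.69 for the gained share and -152.5 to 11.2 for breakpoints. The lost share was 0.334 without Ogg1KO 3 and 0.945 without Mth1KO 2, and breakpoints 11.2 without Ogg1KO 3. The cause was not tested.

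Limma called 0 genes, bins and chromosomes under every alternative run. Genes at an unadjusted p under 0.05 numbered 196, and 85 with normexp, 94 with kidney signal well above background, 480 with slide as a fixed term, 398 without Ogg1KO 3, 506 without Mth1KO 1 and 97 without Mth1KO 3. Same-numbered arrays did not deviate together (correlations -0.39, 0.25 and -0.29), so the replicate numbers are only names. With a replicate block the differences stayed at -6.14, -1.74, -4.40 and -82.3 (exact sign-flip permutation p = 0.5, 1, 0.25 and 0.75), and 191 genes had an unadjusted p under 0.05 with 0 called. Low kidney signal over background limits 4 of the 6 arrays.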
